A study of Homo sapiens with 12 samples.

Results

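The sirtuins are the NAD-dependent protein deacylases SIRT1 to SIRT7. Their rows were found by gene name in a table of normalized counts from KP4 cells, an established human pancreatic ductal carcinoma line, and they make up 7 of its 36601 genes. The cells were wild type by their labels, although the paper found p53 protein undetectable in this line. They received for 24 h either DMSO as vehicle, 10 mM metformin (Met), 5 nM FK866 (FK) or both drugs at these doses (Met+FK). Each treatment had 3 libraries of total RNA depleted of ribosomal RNA, and all of them come from 1 cell line. Metformin inhibits complex I of the respiratory chain, and FK866 inhibits NAMPT, the enzyme that recycles nicotinamide into NAD. Nothing says whether the replicates came from separate cultures, so p-values measure only the spread between these samples.

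Sirtuins remove acetyl and other acyl groups from lysines, and they split 1 molecule of NAD+ into nicotinamide for each group removed. Nicotinamide inhibits them and is returned to NAD by NAMPT, so the drugs act on the redox state and on the supply of the substrate these enzymes use. SIRT1, SIRT6 and SIRT7 are mainly nuclear, SIRT2 is mainly cytoplasmic, and SIRT3, SIRT4 and SIRT5 are mitochondrial. The measurements below are RNA levels, and neither protein nor enzyme activity was measured in these libraries.

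Each library held between 30667735 and 41052203 counted read pairs. Keratin genes KRT8 and KRT18 and the ductal transcription factor gene SOX9 had medians of 2667, 11764 and 4325 normalized counts over the 12 libraries, and 7 of 8 ductal markers had a median of at least 10. The medians of KRT7, MUC1, CDH1 and KRT19 were lower, at 246, 104, 40.9 and 33.4. EPCAM, another ductal marker, lay between 3.78 and 12.5. Of the markers of other cell types, 2 of 4 for leukocytes (PTPRC at 187 and CD68 at 809), 2 of 4 for fibroblasts (COL1A1 at 106 and PDGFRB at 25.3) and 1 of 3 for endothelium (VWF at 31.7) had a median of at least 10, and their part in the results was not tested. None of the 3 acinar and 3 endocrine markers did, and DCN of fibroblasts, CPA1 of acinar cells and INS of endocrine cells were listed at 0 in every library. How strongly values depended on the GC content of the transcript also varied between libraries. This slope was between 0.0429 and 0.196 log2 units per 10 GC points in DMSO, from −0.139 to 0.0801 in Met, from −0.245 to 0.00266 in FK, and from −0.0481 to 0.0631 in Met+FK. The canonical transcripts of the sirtuins run from 40.6% GC in SIRT1 to 64.9% in SIRT6. Differences were therefore also computed after taking out of each library its trend on GC content and length, which is called trend removal. Every FK library had a lower slope than every DMSO library, so trend removal can also take out differences between these treatments. The cause of the slopes was not tested.

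SIRT1 and SIRT5 had the widest differences from DMSO in the direction of higher levels, and the bases before their starts are shown for that reason. They are from the RefSeq promoter table on GRCh38.p14, where 6 of the 7 symbols had an entry, SIRT7 being the one without. Letters run 5′ to 3′ on the plus strand and end at the base before the annotated start. Capitals mark matches on either strand to the E-box CACGTG or the GC box GGGCGG.
SIRT1, chr10:67884406-67884655, plus strand: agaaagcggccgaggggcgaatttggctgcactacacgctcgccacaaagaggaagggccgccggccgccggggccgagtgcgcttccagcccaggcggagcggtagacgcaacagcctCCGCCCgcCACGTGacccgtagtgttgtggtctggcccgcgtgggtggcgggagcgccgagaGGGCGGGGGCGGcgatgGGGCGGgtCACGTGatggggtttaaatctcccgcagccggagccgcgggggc
SIRT5, chr6:13574307-13574528, plus strand: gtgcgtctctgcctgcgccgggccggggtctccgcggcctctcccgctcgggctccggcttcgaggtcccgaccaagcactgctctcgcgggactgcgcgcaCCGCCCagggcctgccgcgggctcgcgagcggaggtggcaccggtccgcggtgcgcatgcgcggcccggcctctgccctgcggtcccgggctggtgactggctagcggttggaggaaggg

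The SIRT1 window of 250 bases held 2 E-boxes, which began 123 and 44 bases before the start, and 4 GC boxes. An E-box was present in 6.345% of 35116 RefSeq promoter windows of that length and a GC box in 42.6%. The SIRT5 window held 1 GC box, 120 bases before the start, and no E-box. Of its 250 bases, 28 that belong to an exon of another SIRT5 transcript are not shown. Neither window held the CCAAT box (CCAAT, present in 32.0% of windows), the core of the C/EBP-ATF response element (TGATGNAA, 3.14%), the AP-1 site (TGANTCA, 6.57%) or the FOXO site (GTAAACA, 2.98%), each searched on both strands. A match describes the letters and was not tested as a binding site.

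All 7 sirtuins had a mean above the minimum of 10 normalized counts and were tested. To compare genes with each other, normalized counts were divided by the length of the canonical transcript in kb. In DMSO, SIRT2 was the most abundant at 848 ± 26.1 normalized counts per kb (SD, n = 3), 34.3% of the family's sum. SIRT7 at 453 ± 30.3, SIRT6 at 449 ± 36.9 and SIRT1 at 360.4 ± 35.2 per kb followed. SIRT7 and SIRT6 overlapped over their 3 libraries, whereas the highest SIRT1 library, at 401 per kb, lay below the lowest SIRT6 library, at 418.

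The mitochondrial members were the least abundant in DMSO. SIRT3 had 216 ± 10.7, SIRT5 109.9 ± 6.03 and SIRT4 32.2 ± 9.47 normalized counts per kb, and no neighbours among these 3 overlapped. The SIRT4 level rested on 26 to 50 read pairs per DMSO library. Against 15324 tested genes of known length, SIRT2 stood above 79.8% and SIRT4 above 21.8%. The order depended on the length used, since with the union of all annotated exons SIRT1 came first and only 3 of the 7 places were kept.

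The sum of the 7 levels per kb was 2388 to 2535 in the DMSO libraries, 2733 to 2853 in Met, 2323 to 2468 in FK and 2894 to 3154 in Met+FK. Both treatments with metformin thus lay above DMSO in every library, and FK overlapped it. SIRT2 came first and SIRT3, SIRT5 and SIRT4, in this order, came last in all 4 treatments. SIRT1, below SIRT6 in DMSO, came right after SIRT2 in FK with 551 ± 100.1 per kb, where its range overlapped that of SIRT2.

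**Figure D1:**
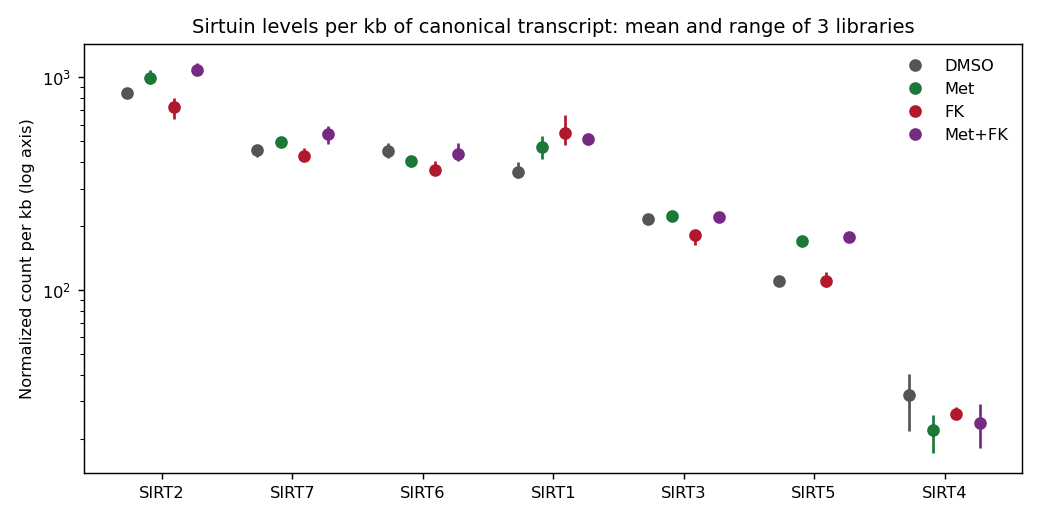
Levels of the 7 sirtuins in normalized counts per kb of canonical transcript (log axis), with points for the mean of 3 libraries and lines from the lowest to the highest library, coloured by treatment and ordered by the DMSO mean. SIRT2 was the highest in each treatment and SIRT4 the lowest, at 32.2 per kb in DMSO.

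The first comparisons ask how each drug alone and both together changed the sirtuins relative to vehicle. Fold changes are log2 differences of normalized count + 1 with their standard errors, from limma-trend over 15376 genes, and a gene is called where its Benjamini-Hochberg adjusted p is under 0.05. All 3 comparisons share the DMSO libraries, so they are not independent of each other. With metformin alone 2 of 7 sirtuins were higher, SIRT5 and SIRT1, and none was lower. Of all genes tested, 24.9% were called higher and 25.9% lower, 50.9% in all, so 2 of 7 is close to the share called higher. With FK866 alone 1 of 7, SIRT1, was higher, against 11.3% of all genes higher and 9.84% lower, 21.1% in all. With both drugs 4 of 7 were higher, SIRT1, SIRT2, SIRT5 and SIRT7, against 26.1% higher and 52.2% called in all. In bulk samples, fewer cells of a type and less RNA per cell cannot be told apart.

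Counted by libraries alone, the treatment and DMSO did not overlap for 3 of 7 sirtuins in Met, all higher, as against 56.9% of all genes. In FK this was so for 4, SIRT1 higher and SIRT2, SIRT3 and SIRT6 lower, against 38.8%. In Met+FK it was so for the 4 genes called, against 60.9%. The median difference of the 7 was 0.13 in Met, −0.23 in FK and 0.25 in Met+FK, beside 0.01, −0.02 and 0.01 over all genes tested. After trend removal these medians of the 7 were 0.17, −0.03 and 0.30, where all genes had −0.04, −0.03 and −0.03.

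**Figure D2:**
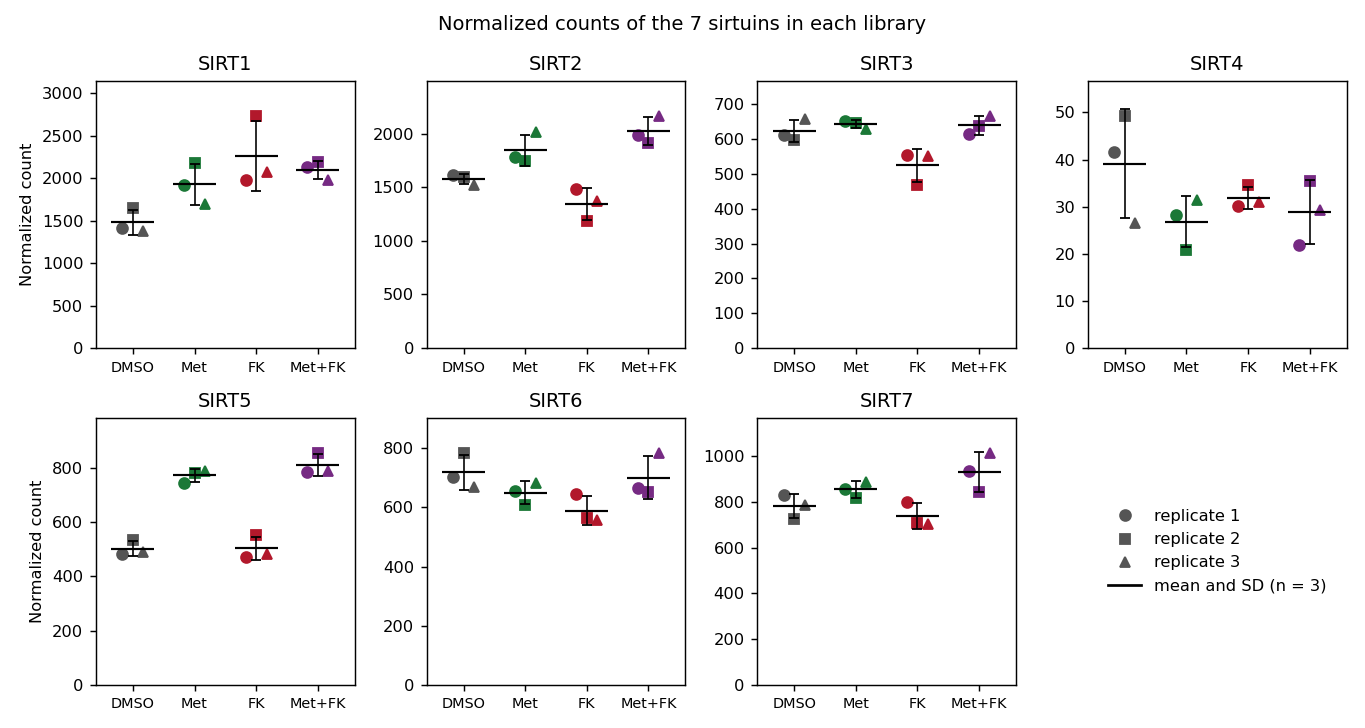
Normalized counts (linear axes from 0) of each sirtuin in the 12 libraries, by treatment, with symbols for the replicate number, a bar for the mean and error bars for the SD of 3 libraries. SIRT5 fell into separate ranges with and without metformin, 745 to 857 against 473 to 554, while SIRT4 stayed below 50 throughout.

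SIRT5, a mitochondrial enzyme that removes succinyl, malonyl and glutaryl groups, had the clearest pattern (ENSG00000124523, hg38 chr6:13574529-13615158, plus strand). Its normalized counts were 481, 533 and 491 in DMSO replicates 1 to 3 and 473, 554 and 484 in FK. They were 745, 783 and 790.3 in Met and 785, 857 and 788 in Met+FK. Every library with metformin lay above every library without it, and the FK range overlapped that of DMSO.

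The log2 fold change of SIRT5 was 0.62 ± 0.09 for Met against DMSO (adjusted p = 4.97e-05) and 0.69 ± 0.09 for Met+FK against DMSO (adjusted p = 1.60e-05). Both exceeded a fold of 1.5, the study's threshold for differentially expressed genes, and SIRT5 was the only sirtuin to do so in either comparison, where 23% and 25.1% of all genes did. For FK against DMSO the difference was 0.0034 with a 95% interval of −0.19 to 0.19 (adjusted p = 0.981). After trend removal the differences of SIRT5 were 0.56 for Met, −0.03 for FK and 0.62 for Met+FK. The calls for both metformin treatments held there and without any single library, but the trend-removed Met difference was under a fold of 1.5.

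SIRT5 shares 1058 exon bases, 9.37% of its exons, with AL441883.1 on the opposite strand. The strand setting of the counting was not given in the sources used here, so reads in this stretch cannot be assigned to one strand. AL441883.1 averaged 47.4 normalized counts and went the other way, at −0.65 for Met and −0.96 for Met+FK against DMSO.

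SIRT1, the nuclear deacetylase of p53, FOXO factors and histones, was called higher in all 3 drug treatments (ENSG00000096717, hg38 chr10:67884656-67918390, plus strand). Its normalized counts were 1410.2, 1646 and 1384 in DMSO. They were 1918, 2176 and 1691 in Met, 1977, 2734 and 2077 in FK and 2131, 2189 and 1982 in Met+FK. No library of these treatments overlapped DMSO, and FK replicate 2 was the highest of the 12.

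For FK against DMSO the log2 fold change of SIRT1 was 0.60 ± 0.12 (adjusted p = 0.0136), past the fold of 1.5, which 3.49% of all genes reached together with the adjusted p. It was 0.38 ± 0.12 for Met (adjusted p = 0.0173) and 0.51 ± 0.12 for Met+FK (adjusted p = 0.00272). SIRT1 has the lowest GC content of the family, and with the GC and length trend removed its differences were 0.31 for FK (adjusted p = 0.00247), 0.13 for Met (adjusted p = 0.0593) and 0.30 for Met+FK (adjusted p = 0.000124). The call for Met was thus lost and the other 2 differences became smaller by over 1.5 times.

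Part of the SIRT1 calls was lost without single libraries, with smaller moves of the difference itself. Without DMSO replicate 1 the FK difference was 0.57 (adjusted p = 0.0745), and without DMSO replicate 3 it was 0.55 (adjusted p = 0.05003). In a fit of the 6 DMSO and FK libraries alone the difference stayed at 0.60 with an adjusted p of 0.0539. These 3 fits called 0.865%, 2.47% and 0.989% of all genes, against 21.1% with all libraries. The Met difference was 0.35, 0.33 and 0.29, with adjusted p-values of 0.0626, 0.0666 and 0.0895 without DMSO replicate 1, DMSO replicate 3 and Met replicate 2, in that order.

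SIRT6, a nuclear enzyme of chromatin, DNA repair and glycolytic gene repression, was not called in any of the 6 comparisons between treatments or for the interaction (ENSG00000077463, hg38 chr19:4174109-4182566, minus strand). Its normalized counts were 704, 784 and 669 in DMSO, 656, 607 and 684 in Met, 646, 563 and 558 in FK and 666, 651 and 785 in Met+FK. All 3 FK libraries were below all DMSO libraries, and the other treatments overlapped DMSO. The FK difference was −0.29 ± 0.10 (adjusted p = 0.0549), and it was −0.06 with the GC and length trend removed (adjusted p = 0.679), SIRT6 having the highest GC content of the family.

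SIRT7, a nucleolar enzyme tied to ribosomal RNA transcription, was called higher than DMSO with both drugs (ENSG00000187531, hg38 chr17:81911939-81921323, minus strand). Its normalized counts were 831, 727 and 789 in DMSO, 859, 818 and 889.8 in Met, 802, 709 and 706 in FK and 937, 843 and 1017 in Met+FK. Each Met+FK library lay above each DMSO library. The difference was 0.25 ± 0.09 (adjusted p = 0.0355), against 0.13 ± 0.09 for Met alone (adjusted p = 0.258) and −0.08 ± 0.09 for FK alone (adjusted p = 0.517).

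The SIRT7 call was lost when any 1 of 4 libraries was left out, where its difference was 0.20, 0.26, 0.24 and 0.19. In the same order its adjusted p was 0.124 without DMSO replicate 2, 0.0702 without DMSO replicate 3, 0.0840 without Met+FK replicate 1 and 0.147 without Met+FK replicate 3. After trend removal SIRT7 was higher both in Met, by 0.30 (adjusted p = 0.00100), and in Met+FK, by 0.36 (adjusted p = 0.000134). Of its exon bases, 105, or 1.71%, are shared with MAFG on the same strand, which averaged 3021 normalized counts. The differences of MAFG from DMSO were 0.05 in Met, −0.13 in FK and 0.23 in Met+FK (adjusted p = 0.726, 0.348 and 0.0860). For Met+FK against FK, MAFG was at 0.36 (adjusted p = 0.0133). The part of the shared bases in the SIRT7 values was not tested.

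SIRT2, the cytoplasmic deacetylase of alpha-tubulin, lay on opposite sides of DMSO in Met and in FK (ENSG00000068903, hg38 chr19:38878555-38899862, minus strand). Its normalized counts were 1615, 1598 and 1523 in DMSO and 1484, 1185 and 1372 in FK. They were 1783, 1743 and 2011 in Met and 1984, 1914 and 2166 in Met+FK. All FK libraries were below, and all libraries with metformin above, the DMSO range.

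The difference of SIRT2 was called for Met+FK against DMSO, at 0.35 ± 0.09 (adjusted p = 0.00480). It was 0.22 ± 0.09 for Met (adjusted p = 0.0558) and −0.23 ± 0.09 for FK (adjusted p = 0.0734), both short of the threshold. Trend removal gave 0.39 for Met (adjusted p = 6.78e-06) and −0.03 for FK (adjusted p = 0.779). SIRT2 shares 40 exon bases with NFKBIB on the opposite strand.

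SIRT3 (ENSG00000142082, hg38 chr11:215030-236931, minus strand) is the main deacetylase of the mitochondrial matrix. It had 613, 597 and 657 normalized counts in DMSO and 554, 469 and 549.8 in FK. Its values were 652, 647 and 630.0 in Met and 614, 637 and 666 in Met+FK. The FK libraries were below all 9 others, and both treatments with metformin overlapped DMSO. The differences from DMSO were −0.25 ± 0.09 for FK (adjusted p = 0.0561), 0.05 ± 0.09 for Met (adjusted p = 0.671) and 0.04 ± 0.09 for Met+FK (adjusted p = 0.740). Trend removal left an FK difference of −0.11 (adjusted p = 0.361). RIC8A, on the opposite strand, shares 84 exon bases with SIRT3.

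SIRT4, a mitochondrial ADP-ribosyltransferase and lipoamidase, had the fewest reads of the family (ENSG00000089163, hg38 chr12:120302316-120313249, plus strand). It had 41.5, 49.3 and 26.6 normalized counts in DMSO, 28.2, 20.8 and 31.5 in Met, 30.2, 34.5 and 31.0 in FK and 22.0, 35.4 and 29.3 in Met+FK. The DMSO libraries spanned the values of the other treatments except the lowest of Met and Met+FK. For Met against DMSO the difference was −0.50 ± 0.26 with an interval of −1.05 to 0.04 (adjusted p = 0.113), and it was −0.75 without DMSO replicate 3 (adjusted p = 0.0285).

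**Figure D3:**
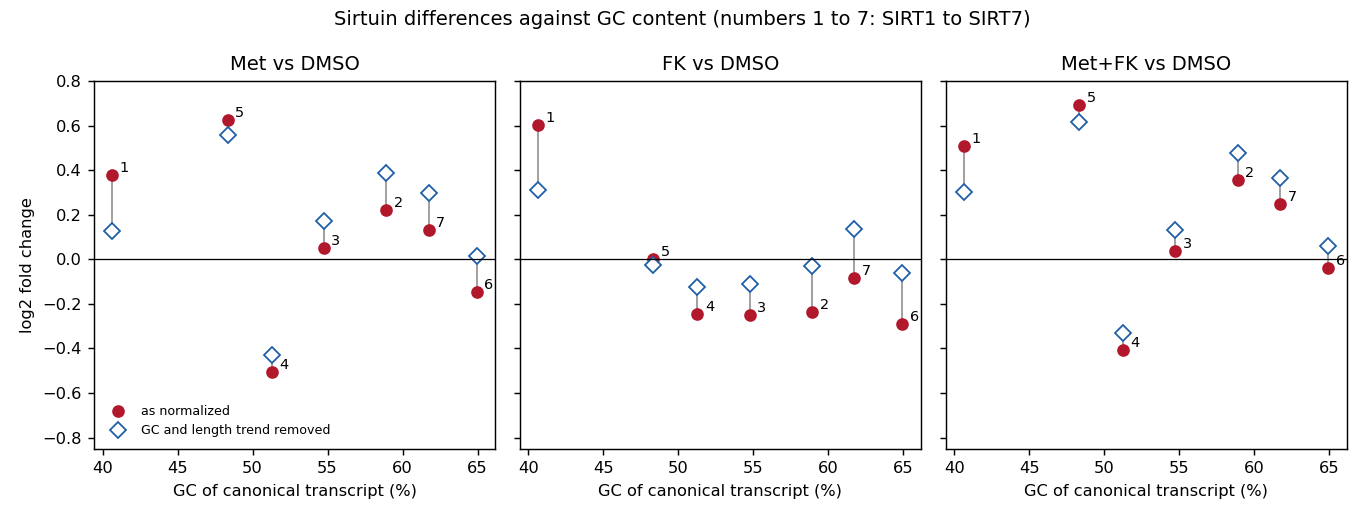
Log2 fold changes from DMSO (vertical axis) against the GC content of each sirtuin's canonical transcript (horizontal axis, %), as normalized (filled circles) and after taking out each library's own trend on GC and length (open diamonds). In FK against DMSO, SIRT1 at 40.6% GC moved from 0.60 to 0.31 and SIRT6 at 64.9% GC from −0.29 to −0.06, while SIRT5 at 48.3% GC stayed near its value in each comparison.

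Same-numbered libraries of DMSO and FK deviated together from their group means, as did those of Met and Met+FK. A fit with the replicate number as a block was therefore read beside these 2 comparisons and their interaction. The block is a common effect of the replicate number over all 4 treatments. Its calls therefore rest on a sharing that was weaker in some pairs, as in replicate 1 of Met and DMSO (correlation 0.0129). For FK against DMSO the block kept SIRT1 higher and added SIRT2, SIRT3 and SIRT6 as lower, with adjusted p-values of 0.0209, 0.0182 and 0.0237. The count thus went from 1 to 4 of 7, while the share of all genes called went from 21.1% to 44.6%, with 21.3% lower. When the GC and length trend was removed in the same fit as the block, SIRT1 alone of the 7 was called, and 20.4% of all genes were.

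The next comparison asks what FK866 adds to metformin. For Met+FK against Met, 0 of 7 sirtuins were called by limma, edgeR or DESeq2. At an unadjusted p under 0.05 in limma there were 0 of 7, beside 1051 of 15376 genes. Of all genes, limma called 0.0976%, edgeR 0.104% and DESeq2 0.475%. The treatments overlapped for all 7 genes, while 13.4% of all genes did not overlap. The log2 differences lay between −0.01 for SIRT3 and 0.13 for SIRT2, and the intervals were −0.13 to 0.39 for SIRT1 and −0.12 to 0.26 for SIRT5. In the block fit the count stayed at 0, and with the GC and length trend removed in the block fit SIRT1 was higher by 0.18 (adjusted p = 0.0432), as 3.39% of all genes were called. On trend-removed values the same-numbered correlations of Met+FK and Met were 0.159, 0.0964 and 0.0738, below 0.1 in 2 pairs.

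The converse comparison, what metformin adds to FK866, gave 4 of 7 sirtuins higher and none lower in Met+FK against FK, where 20.5% of all genes were higher and 42.1% called in all. SIRT5 was higher by 0.69 ± 0.09 (adjusted p = 2.31e-05) and SIRT2 by 0.59 ± 0.09 (adjusted p = 0.000131), both past a fold of 1.5, which 18.6% of all genes passed. SIRT7 was higher by 0.33 ± 0.09 (adjusted p = 0.0101) and SIRT3 by 0.29 ± 0.09 (adjusted p = 0.0172). For SIRT1, the interval of the difference was −0.35 to 0.17.

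Of these 4, SIRT2 and SIRT5 kept their calls without any single library. SIRT3 had an adjusted p of 0.0785 without FK replicate 2 and 0.0631 without Met+FK replicate 3, and SIRT7 had 0.0531 without Met+FK replicate 3. All 4 were called with the GC and length trend removed, at 0.51 for SIRT2, 0.24 for SIRT3, 0.64 for SIRT5 and 0.23 for SIRT7. That fit called 54.3% of all genes, against 42.1% without trend removal. SIRT2 was then below a fold of 1.5, which SIRT5 still passed.

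In the direct comparison of the 2 drugs, Met against FK, 3 of 7 sirtuins were higher in Met, with 17.2% of all genes higher and 36.7% called in all. SIRT5 differed by 0.62 ± 0.09 (adjusted p = 7.84e-05), SIRT2 by 0.46 ± 0.09 (adjusted p = 0.00129) and SIRT3 by 0.30 ± 0.09 (adjusted p = 0.0163). Of these SIRT5 passed a fold of 1.5, as did 15.1% of all genes. The SIRT3 call was lost without Met replicate 1 (adjusted p = 0.0521), without FK replicate 2 (adjusted p = 0.0704) and in a fit of the 6 libraries alone (adjusted p = 0.0587). SIRT1 was lower in Met by −0.22 without passing the test (adjusted p = 0.168), and it passed with the GC and length trend removed, at −0.19 (adjusted p = 0.00878).

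**Figure D4:**
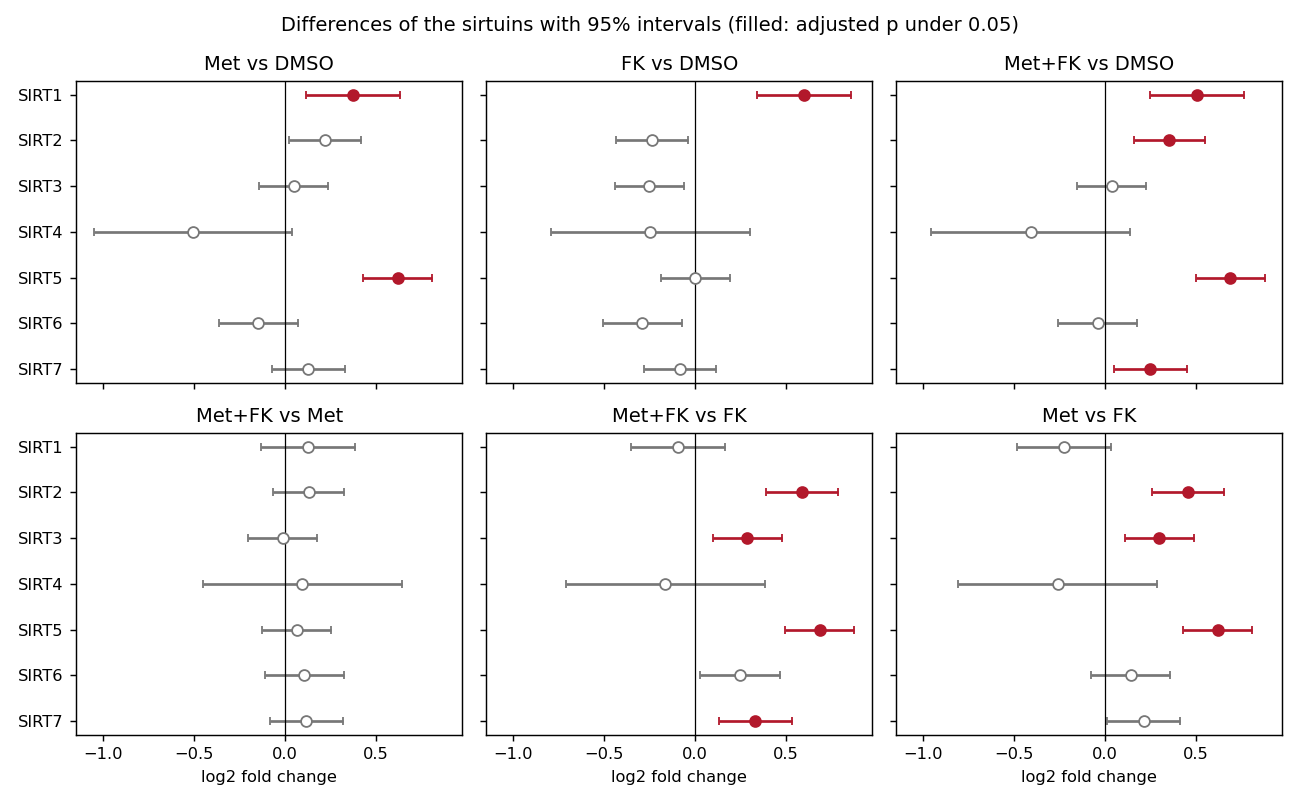
Log2 fold changes (horizontal axis) of the 7 sirtuins in the 6 comparisons between treatments, with 95% intervals from limma and filled points where the adjusted p is under 0.05. SIRT5 was called wherever a treatment with metformin was set against one without it, and no sirtuin was called for Met+FK against Met.

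The interaction asks whether FK866 acted differently in cells that also had metformin, given as Met+FK minus Met, less FK minus DMSO. It was called for 0 of 7 sirtuins by limma, by edgeR and by DESeq2. Of all genes, limma called 0.0585%, edgeR 0.065% and DESeq2 5.67%. At an unadjusted p under 0.05 in limma the interaction took in 3 of 7, SIRT1, SIRT2 and SIRT6, among 4695 of 15376 genes. SIRT1 had −0.47 ± 0.17 (adjusted p = 0.115), SIRT2 0.37 ± 0.13 (adjusted p = 0.113) and SIRT6 0.40 ± 0.14 (adjusted p = 0.115). With the replicate block these 3 were called, with adjusted p-values of 0.00834, 0.0208 and 0.0375, when 32% of all genes were. With the GC and length trend removed in the block fit, 0 of 7 were called and 6.97% of all genes were.

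Over the 12 libraries, SIRT2 and SIRT7 followed each other most closely among the 7, with Pearson's r of 0.898 on the log2 scale, and SIRT1 and SIRT6 were the most opposed, at −0.570. With the GC and length trend removed these were 0.833 and 0.0538, and the closest pair was then SIRT2 with SIRT5 at 0.956. These r values describe 12 libraries in 4 treatments, which share treatment and GC slope. Of 11521 genes with a mean of at least 100, those closest to SIRT5 were TSTD2 at 0.9896 and LRRC8D at 0.988. For SIRT2 they were VPS28 at 0.993 and ZNF48 at 0.986, for SIRT7 CRTC1 at 0.970 and CDK20 at 0.951, and for SIRT3 BCAS4 at 0.957 and DALRD3 at 0.939. The closest to SIRT1 were PCNX4 at 0.985 and ZNF507 at 0.980, whose transcripts are 37.8% and 39.4% GC. SIRT6, of the highest GC content, was followed by POLE4 at 0.946 and PAM16 at 0.935, whose transcripts are 47.3% and 60.2% GC. SIRT4, the lowest in counts, was followed by GLE1 and AC012640.2, both at 0.793.

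The genes around the sirtuins were described by 6 lists. The list of regulators of sirtuin genes and proteins had 13 of 14 members tested, and PPARGC1A was too low. Against DMSO, 4 were higher and 6 lower in Met, 2 and 2 in FK, and 5 and 6 in Met+FK, with 50.9%, 21.1% and 52.2% of all genes called. The median differences were −0.14, −0.19 and −0.01 where all genes had 0.01, −0.02 and 0.01, and −0.06, −0.06 and 0.04 after trend removal. CCAR2, an inhibitor of SIRT1, fell by 0.74 in Met (adjusted p = 1.22e-05) and by 0.28 in FK (adjusted p = 0.0416). FOXO3, which activates SIRT1 transcription and is also a SIRT1 substrate, rose by 0.78 ± 0.10, 0.42 ± 0.10 and 0.93 ± 0.10 in Met, FK and Met+FK (adjusted p = 1.90e-05, 0.0209 and 2.66e-06). E2F1, another activator of SIRT1 transcription, went the other way in the treatments with metformin, at −1.20 ± 0.11 in Met and −1.39 ± 0.11 in Met+FK, and PPARG, a repressor of it, rose by 1.18 ± 0.09 and 1.37 ± 0.09.

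Of the genes of NAD synthesis and supply, 14 of 19 were tested. In Met 7 were higher and 2 lower, in FK 3 were higher and none lower, and in Met+FK 7 were higher and 3 lower, as against 50.9%, 21.1% and 52.2% of all genes called. Their medians were 0.38, 0.05 and 0.23, and after trend removal 0.25, −0.02 and 0.21. NAMPT, the target of FK866, had 1830.3, 2102 and 1615 normalized counts in DMSO. It had 3159.6, 3392 and 2432 in Met, 2307, 3662 and 2351 in FK and 3198, 3382 and 2864 in Met+FK. All libraries with a drug lay above all DMSO libraries, and FK replicate 2 was the highest. The differences were 0.69 ± 0.16 (adjusted p = 0.00270), 0.56 ± 0.16 (adjusted p = 0.0333) and 0.77 ± 0.16 (adjusted p = 0.00112). With the GC and length trend removed they were 0.33, 0.10 and 0.49, the FK difference no longer passing the test (adjusted p = 0.321).

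NNMT, which methylates nicotinamide and so removes it from salvage, rose by 0.99 ± 0.10 in Met and 1.06 ± 0.10 in Met+FK (adjusted p = 1.30e-06 and 5.23e-07), and its FK difference was −0.05 ± 0.10 (adjusted p = 0.707). NMNAT2, which joins the nucleotide to adenylate, rose by 1.13 ± 0.15 and 0.94 ± 0.15 in the same treatments. NADK2, the mitochondrial NAD kinase, rose in all 3, by 0.77 ± 0.14, 0.46 ± 0.14 and 0.85 ± 0.14. NAPRT, the entry enzyme for nicotinic acid, had only 37.5 ± 4.25 normalized counts in DMSO (SD, n = 3) and was lower in Met, at −1.12 ± 0.22, and in Met+FK, at −1.07 ± 0.22.

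The other enzymes that consume NAD, PARP family members, CD38, BST1 and SARM1, were all tested, 16 of 16. In Met 8 were higher and 4 lower, in FK 3 and 2, and in Met+FK 7 and 6, as against 50.9%, 21.1% and 52.2% of all genes called. Their medians were 0.25, −0.04 and 0.11, and after trend removal 0.03, −0.07 and −0.09. After trend removal 6 were higher and 6 lower in Met, where 57.3% of all genes were called. PARP1, the main poly(ADP-ribose) polymerase of the DNA damage response, fell by 0.54 in Met and 0.55 in Met+FK (adjusted p = 1.79e-05 and 1.10e-05). Tankyrase TNKS rose by 0.67 ± 0.09, 0.42 ± 0.09 and 0.79 ± 0.09 in Met, FK and Met+FK. PARP16, a mono-ADP-ribosyltransferase of the endoplasmic reticulum, rose by 0.62 ± 0.09 and 0.79 ± 0.09 with metformin, and PARP6 by 0.39 ± 0.08 and 0.53 ± 0.08.

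The zinc-dependent deacetylases HDAC1 to HDAC11, which do not use NAD, were 3 higher and 3 lower of 11 in Met, 1 and 1 in FK, and 3 and 3 in Met+FK, as against 50.9%, 21.1% and 52.2% of all genes called. Their medians were −0.10, −0.12 and −0.01, and after trend removal −0.13, −0.07 and −0.12. The nuclear class I enzymes HDAC1 and HDAC3 fell in Met, by 0.55 and 0.57 (adjusted p = 2.81e-05 and 3.89e-05). HDAC6, which like SIRT2 deacetylates alpha-tubulin, rose by 0.32 ± 0.07 in Met and 0.42 ± 0.07 in Met+FK, and HDAC9 by 0.84 ± 0.11 and 1.07 ± 0.11.

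Of 26 genes for substrates of sirtuins, 20 were tested. In Met 3 were higher and 6 lower, in FK 1 and 2, and in Met+FK 5 and 6, as against 50.9%, 21.1% and 52.2% of all genes called. Their medians were −0.06, −0.13 and 0.02, and after trend removal −0.03, −0.07 and −0.03. TUBA1B, an alpha-tubulin, fell by 1.25, 0.36 and 1.33 in Met, FK and Met+FK (adjusted p = 1.81e-07, 0.0288 and 6.69e-08). XRCC6, the Ku70 subunit of DNA end joining, fell by 0.73 in Met and 0.71 in Met+FK, and SDHA of respiratory complex II by 0.49 and 0.47.

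The last list holds glycolytic genes that SIRT6 is known to repress together with TXNIP, and 7 of 8 were tested. In Met 1 was higher and 4 lower, in FK 1 and 1, and in Met+FK 3 and 4, as against 50.9%, 21.1% and 52.2% of all genes called. Their medians were −0.60, −0.14 and −0.59, and after trend removal −0.47, −0.13 and −0.47. LDHA, which makes lactate, fell by 0.77 and 0.81 in Met and Met+FK (adjusted p = 1.26e-07 and 4.77e-08), and its FK difference was −0.02 ± 0.06 (adjusted p = 0.837). TPI1 and PFKM, both glycolytic enzymes, fell by 0.60 and 0.61 in Met. PDK1 went the other way, by 0.58 ± 0.13 in Met and 0.64 ± 0.13 in Met+FK (adjusted p = 0.00182 and 0.000776). SLC2A1 rose by 0.60 ± 0.12 in Met+FK (adjusted p = 0.000903). TXNIP, which restrains glucose uptake, had 767, 661 and 805 normalized counts in DMSO and 917, 794 and 776 in Met. It had 1541, 1496 and 1452 in FK and 1262, 1339 and 1197 in Met+FK, so that both treatments with FK866 lay above both without it. TXNIP rose by 1.01 ± 0.09 in FK (adjusted p = 3.93e-05) and by 0.61 ± 0.09 in Met+FK against Met (adjusted p = 0.0220), where it was the only gene of the 6 lists to be called.

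**Figure D5:**
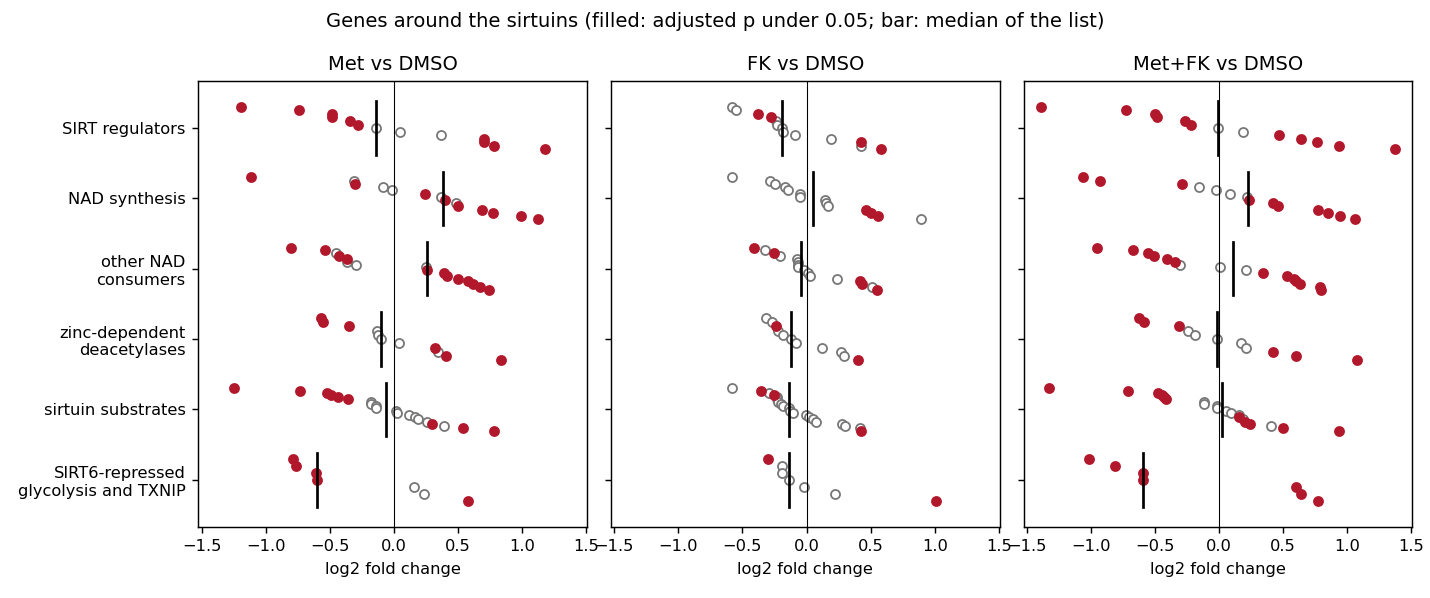
Log2 fold changes from DMSO (horizontal axis) of the tested genes in the 6 lists, 1 point per gene, filled where the adjusted p is under 0.05, with a bar at the median of each list. The medians of the list with glycolytic genes were −0.60 in Met and −0.59 in Met+FK, and the highest FK difference was that of TXNIP at 1.01.

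In FK against DMSO, the replicate block raised the counts of called genes in 4 of the 6 lists by over 1.5 times, as the share over all genes rose from 21.1% to 44.6%. They became 3 higher and 8 lower for regulators, 4 and 3 for NAD synthesis, 3 and 3 for zinc-dependent deacetylases, and 4 and 6 for substrates. With the GC and length trend removed in the block fit they were 1 and 2, 0 and 0, 1 and 2, and 1 and 3 in the same order, with 19 substrates in place of 20 and 20.4% of all genes called. FOXO3 and TXNIP kept their FK calls with the trend removed, at 0.36 and 0.87 (adjusted p = 0.0119 and 4.94e-06), whereas TNKS and NADK2 were then at 0.12 and 0.17 (adjusted p = 0.302 and 0.131). The part of the GC slope in these differences was not tested further.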

How the data were processed

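KP4 cells were profiled by RNA-seq in 12 libraries, 3 for each of 4 treatments, grouped by their labels. The authors trimmed reads with cutadapt, aligned them with STAR to hg38, counted read pairs with both ends mapped with featureCounts and divided the counts by DESeq2 size factors, so the deposited values are a normalized signal per gene. The annotation and strand setting of the counting are not given in the sources used here. Deposited starts are 0-based and 1 was added. Of 36366 genes found in GENCODE 44, 83.61% had the same start and end, and transcript lengths and GC content were taken from it. Each value was a whole number of read pairs once its library's step was found (100% within 0.01), and libraries held 30667735 to 41052203 read pairs.

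Under R 4.3.3, a pseudocount of 1 was added, log2 was taken and the 12 libraries were tested in 1 limma-trend fit (limma 3.58.1), with a mean of at least 10 required (15376 of 36601 genes; 9803 had no reads). P-values were two-sided and Benjamini-Hochberg adjusted over all genes tested. Folds on this scale understate the change of low genes. Alternatives were pseudocounts of 0.1 and 10, other filters and scalings, fits of the libraries compared alone, a loess trend on GC content and length removed from each library, the replicate number as a block, each library left out, and edgeR 4.0.16 and DESeq2 1.42.0 on the recovered read pairs. For Met against DMSO edgeR called 4134 genes higher and 3669 lower, and for FK against DMSO 1961 and 1062.

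Same-numbered libraries were checked for shared deviations from their group means. The correlations were 0.252, 0.420 and 0.219 for FK and DMSO and 0.171, 0.200 and 0.226 for Met+FK and Met, all above 0.1, and these 2 comparisons were taken as paired. This comes from the values, as the labels give only a number. In each other comparison between treatments at least 1 pair was below 0.1. Some of their other pairs were higher than those of Met+FK and Met. The correlations were 0.0233, 0.403 and 0.300 for Met and FK and 0.0129, 0.328 and 0.248 for Met and DMSO. The pairing is thus not shown to be particular to the 2 comparisons. On trend-removed values all 3 pairs stayed above 0.1 for FK and DMSO and rose above it for Met and FK (0.117, 0.144 and 0.122), while 2 of 3 fell below it for Met+FK and Met (0.159, 0.0964 and 0.0738).

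The members and lists were chosen with earlier results of these data known. Besides the 7 sirtuins, the text names the 4 tested genes of each list with the smallest adjusted p in Met+FK against DMSO. It also names NAMPT, PDK1, SLC2A1, the 2 genes closest to each sirtuin over the libraries, and genes overlapping a sirtuin. The test was first run on simulated counts with known changes, drawn independently for each library. They held no GC slope and no shared deviations of same-numbered libraries, so that run does not cover the effect of either on the calls.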

Additional observations from a re-analysis of the deposited data

Results flagged for a closer look

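For SIRT2, SIRT6 and SIRT7, FK866 went with lower values in all 3 same-numbered pairs without metformin and with higher values in all 3 pairs with it. The same held for 12.9% of all 15376 genes tested, and 6.43% had the opposite pattern. For SIRT2 the log2 differences of FK minus DMSO were −0.122, −0.432 and −0.151 in replicates 1 to 3, and those of Met+FK minus Met were 0.154, 0.135 and 0.107. The interaction was 0.37, and it did not pass the test (limma, adjusted p = 0.113). SIRT6 had −0.125, −0.478 and −0.262 without metformin and 0.0207, 0.101 and 0.200 with it, an interaction of 0.40 (limma, adjusted p = 0.115). SIRT7 had −0.0505, −0.0371 and −0.160 without metformin and 0.124, 0.0422 and 0.192 with it, an interaction of 0.20 (limma, adjusted p = 0.296). With the replicate block, SIRT2 and SIRT6 passed (limma, adjusted p = 0.0208 and 0.0375), in a fit that called 32% of all genes. These are the 3 sirtuins of highest GC content, and with the GC and length trend removed the interactions were 0.12, 0.10 and −0.07 (limma, adjusted p = 0.417, 0.675 and 0.744).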

How the results depend on the processing

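The number of sirtuins called changed by over 1.5 times under few of the alternatives. For FK against DMSO it went from 1 to 0 when only the libraries compared were fitted (0.989% of all genes called, against 21.1%), to 4 with the replicate block (1 higher, 3 lower, 44.6% of all genes) and to 3 with DESeq2 (1 higher, 2 lower, SIRT3 and SIRT6, 26.9% of all genes). For Met against DMSO it went from 2 to 4 with libraries scaled to the same total (53.1% of all genes called, against 50.9%). That scaling moved the median of all genes from 0.01 to 0.13. The count went to 5 with the GC and length trend removed together with the block (61.7% of all genes). For Met against FK it went from 3 to 5 with the block (47.5% of all genes, against 36.7%) and also with the trend removed there (55.8%). For the interaction it went from 0 to 3 with the block (32%, against 0.0585%). For Met+FK against Met it went from 0 to 1 with the trend removed in the block fit (3.39%, against 0.0976%). The block changed no other of these counts by over 1.5 times, and the replicate numbers pair the Met and FK libraries by the check used only on trend-removed values, with correlations of 0.117, 0.144 and 0.122. Of the 7 places in the order of levels, 3 were kept with the union of all exons and 5 with the mean of all 12 libraries. The cause of these changes was not tested.

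Leaving out 1 library gave 1 to 2 sirtuins for Met against DMSO, 0 to 4 for FK against DMSO, 3 to 4 for Met+FK against DMSO, 0 to 0 for Met+FK against Met, 2 to 5 for Met+FK against FK, 2 to 3 for Met against FK and 0 to 1 for the interaction. The share of all genes called in these fits ran from 42.4% to 51.8%, 0.865% to 32.1%, 43.5% to 50.5%, 0.013% to 0.065%, 34.7% to 41.4%, 29.2% to 37.7% and 0% to 12% in the same order. The low counts came without DMSO replicate 1 or Met replicate 2 for Met against DMSO, without DMSO replicate 1 or 3 for FK against DMSO, and without Met+FK replicate 3 for Met+FK against FK. The high counts for FK against DMSO, 4, and for the interaction, 1, came without FK replicate 1. Of 917 differences of single sirtuins under an alternative, 844 kept direction and side of the threshold, 21 changed sign while called in neither fit, 35 gained the call and 17 lost it. No called difference changed sign. SIRT4 had 21 to 50 read pairs a library, and whether depth or the spread between libraries limits its test was not tested.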
